A study of Mus musculus with 8 samples.

Results

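Megakaryocyte and platelet genes were followed in sorted bone marrow cells, called stem cells in the labels and leukemic stem cells in the study, of mice with chronic myeloid leukemia (CML), without treatment and after imatinib. The 8 genes were Itga2b, Vwf, Pf4, Selp, Gp9, Gp1bb, Clec1b and Nfe2. They were taken by symbol from the deposited table of 15576 genes, where all 8 were present, and 7 of them were among the 11937 genes with enough counts to be tested. All mice carried BCR-ABL and SCL-tTA, 2 transgenes on a C57BL/6 background. In this model the tetracycline transactivator is driven from the SCL locus of stem and progenitor cells and turns BCR-ABL on once tetracycline is taken away. 4 libraries came from untreated mice (CML) and 4 from mice that received 400 mg/kg of imatinib, an inhibitor of the ABL kinase, by gavage every other day for 4 weeks (CML-TKI). The paper gives a lower dose than the labels for the mice of its stem cell RNA-seq, so the dose of these libraries is uncertain, and neither the ages of the mice, whether they were primary or transplanted, nor the number of animals behind a library are given in the sources used here, so p-values measure the spread between these libraries only.

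The platelet is a fragment of the megakaryocyte, a large bone marrow cell that descends from the hematopoietic stem cell. Part of the stem cell pool already carries RNA of platelet genes such as Vwf and Itga2b, which is known as megakaryocyte or platelet priming, and stem cells with this RNA are biased towards making platelets. The program is run by GATA, ETS and RUNX factors together with NF-E2, and its products are surface receptors that hold platelets to the vessel wall and to each other, the cargo of alpha-granules, and the tubulin and myosin used to shed platelets.

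The labels give a lineage-negative, Sca1-positive, cKit-positive, Flt3-negative gate with CD150-negative and CD48-positive cells for all 8 libraries, whereas the paper describes CD150-positive and CD48-negative cells. Slamf1, which encodes CD150, was measured at 29.01 to 37.7 CPM (counts brought to a common library size with edgeR's TMM factors) in the CML libraries and at 0.620 to 6.58 CPM in the CML-TKI libraries. Cd48 was at 3.86 to 6.40 CPM and 39.9 to 178 CPM. The 2 groups did not overlap for either of these genes (log2 fold changes -3.42 and 4.35, edgeR adjusted p = 0.00797 and 8.70e-04). Of the other gate genes, Kit was lower without overlap (-1.92, adjusted p = 8.70e-04). Ly6a, for Sca1 (-1.12, adjusted p = 0.373), and Flt3 (0.65, adjusted p = 0.522) overlapped. HSC markers were lower in sum and granulocyte markers higher in all CML-TKI libraries. Together with the Slamf1 and Cd48 values, this goes against the name of stem cells for them. The Slamf1 call was lost with CML 1 to 3 summed to 1 library (adjusted p = 0.134) and in libraries 1 to 3 of each group alone (0.0587). Total counts ran from 4939644 to 8620101 in the CML libraries and from 1041552 to 5104268 in the CML-TKI libraries. 3 counts, taken as the floor, were 0.409 to 0.580 CPM in CML and 0.570 to 3.29 CPM in CML-TKI, highest in CML-TKI 3. Genes with a count numbered 14425 to 14629 in the CML libraries and 14744 in CML-TKI 1, but 11835, 11900 and 12614 in CML-TKI 2, 3 and 4, of which the first pair held the lowest sums over the members; the part of this in the members' levels was not tested. The fourth CML column is numbered 5 and is called CML 5.

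As a view of the regulatory sequence of the members, the RefSeq promoters (GRCm38, 250 bases before to 50 after the start, printed 5′ to 3′ on the gene's strand) of 4 of them are shown, 2 receptors that passed the test, the granule protein Pf4, and Gp1bb, whose counts are shared with a neighbour. Capitals mark the GATA words AGATAA or AGATAG or TGATAA or TGATAG and the ETS words CGGAAG or AGGAAG, on either strand. The windows are chr11:102469834-102470133 (minus strand), chr6:87777820-87778119 (plus), chr5:90772185-90772484 (plus) and chr16:18622354-18622653 (minus), in this order, and that of Gp9 lies inside the annotated span of its gene.
Itga2b: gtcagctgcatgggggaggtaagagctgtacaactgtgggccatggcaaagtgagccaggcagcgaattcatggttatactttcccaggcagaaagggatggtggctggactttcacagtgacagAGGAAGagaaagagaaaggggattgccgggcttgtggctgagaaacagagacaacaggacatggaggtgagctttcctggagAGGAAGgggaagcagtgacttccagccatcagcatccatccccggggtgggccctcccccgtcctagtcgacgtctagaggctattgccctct
Gp9: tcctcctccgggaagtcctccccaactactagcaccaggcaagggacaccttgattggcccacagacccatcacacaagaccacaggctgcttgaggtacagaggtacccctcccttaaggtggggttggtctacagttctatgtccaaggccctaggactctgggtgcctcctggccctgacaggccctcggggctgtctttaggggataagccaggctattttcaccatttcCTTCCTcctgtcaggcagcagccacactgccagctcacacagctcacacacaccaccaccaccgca
Pf4: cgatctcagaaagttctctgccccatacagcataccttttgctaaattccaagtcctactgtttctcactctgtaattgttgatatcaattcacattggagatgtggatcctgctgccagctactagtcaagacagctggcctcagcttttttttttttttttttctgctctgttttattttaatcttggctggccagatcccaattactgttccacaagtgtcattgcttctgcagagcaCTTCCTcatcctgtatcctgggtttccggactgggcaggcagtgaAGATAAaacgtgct
Gp1bb: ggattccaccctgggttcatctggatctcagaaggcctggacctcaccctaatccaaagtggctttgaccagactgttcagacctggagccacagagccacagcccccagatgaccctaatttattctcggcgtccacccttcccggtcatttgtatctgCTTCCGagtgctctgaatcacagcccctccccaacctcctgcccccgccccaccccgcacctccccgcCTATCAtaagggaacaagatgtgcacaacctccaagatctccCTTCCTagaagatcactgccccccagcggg

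The table held promoters for 6 members, these 4 with Selp and Clec1b. An ETS word stood in 5 of the 6, where 46.5% of 32851 promoters had one. Itga2b had AGGAAG at -125 and at -43 from the start, Pf4 and Gp9 had it on the opposite strand at -9 and -16, and Selp had it on the opposite strand at -64 and on its own strand at 20. A GATA word stood in 3 of the 6, those of Pf4, Gp1bb and Clec1b, against 29.8% of all promoters. The RUNX words TGTGGT and TGCGGT were in 1, that of Gp9, against 22.4%, and the NF-E2 words TGAGTCA and TGACTCA, also searched with GC before them, were in 0 of the 6 against 5.20%. These matches are a description of the letters in the windows.

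Between the groups, 3 members were lower in the CML-TKI libraries past an adjusted p of 0.05 by edgeR's quasi-likelihood test (Gp9, Itga2b and Nfe2), where 10.2% of all genes tested passed and 3.93% were lower. The other 4 members tested, Vwf, Pf4, Selp and Gp1bb, had log2 fold changes between -2.93 and -1.83 without passing the threshold. 6 of the 7 lay below every CML library in every CML-TKI library, where 13.1% of the genes tested did so. No member lay above the CML libraries in every CML-TKI library, against 10.3% of genes. With CML 1 to 3 summed to 1 library, 0 members passed (edgeR adjusted p = 0.0962 for Gp9, 0.165 for Itga2b and 0.0938 for Nfe2). The median log2 fold change was -2.11 over the 7 members and -0.000258 over all genes tested. Summed over the 8 members, the CML libraries held 1441 to 1784 CPM and the CML-TKI libraries 341 CPM (library 1), 134.5 CPM (library 2), 191 CPM (library 3) and 643 CPM (library 4). In bulk samples, fewer cells with these RNAs and less RNA per cell cannot be told apart.

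**Figure D1:**
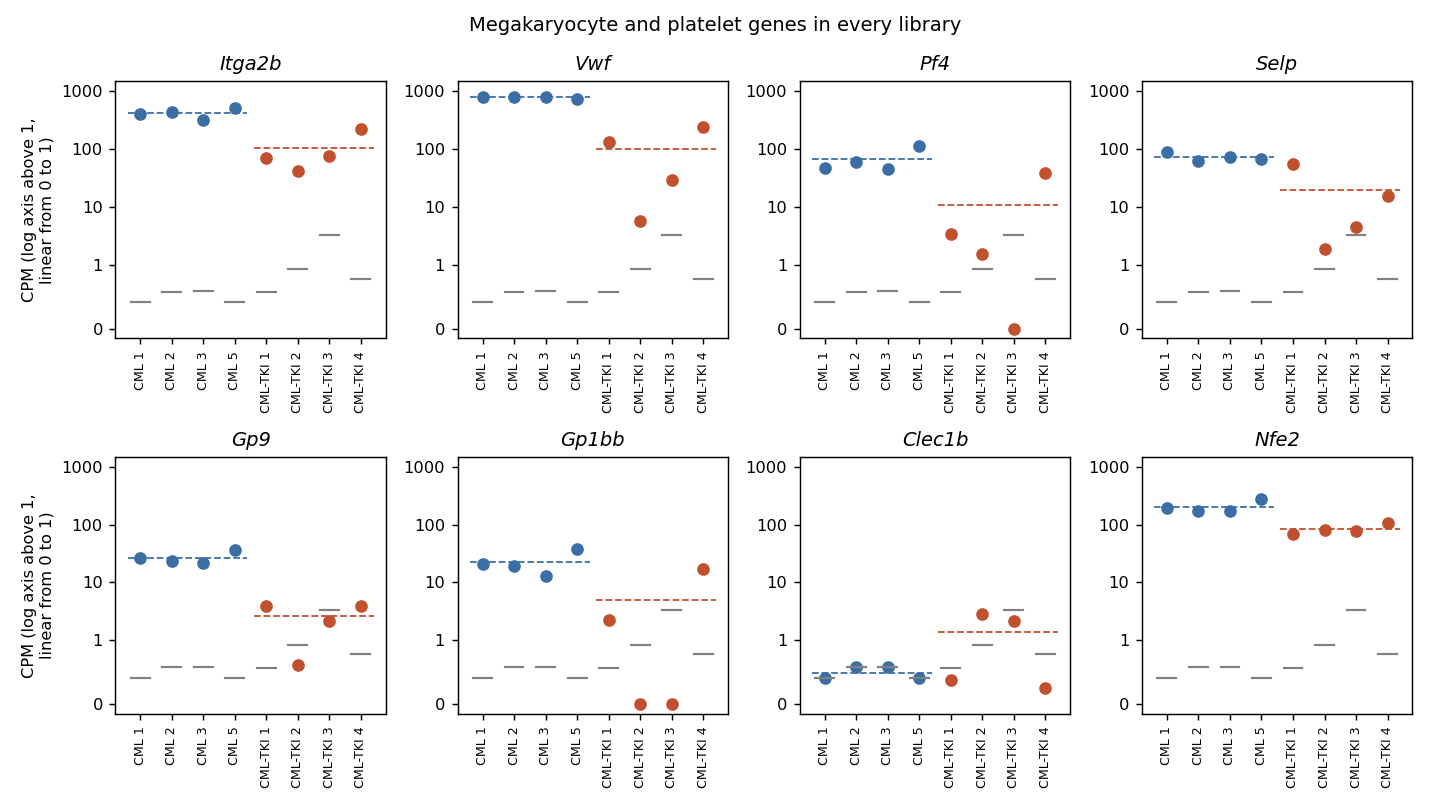
CPM of each member (y axis, logarithmic above 1 and linear from 0 to 1) in the 4 CML (blue) and 4 CML-TKI (red) libraries; dashed lines are group means and grey ticks mark 3 counts in that library. Clec1b sits at or under 3 counts in 7 of the 8 libraries, and Vwf spans 5.58 to 236 CPM among the CML-TKI libraries.

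Itga2b encodes CD41, the alpha chain of the fibrinogen receptor of platelets (chromosome 11, 102453297 to 102469883 of GRCm38, minus strand). It was measured at 405, 430.4, 320.2 and 513 CPM in CML 1, 2, 3 and 5 and at 71.0, 40.9, 76.7 and 224 CPM in CML-TKI 1 to 4. The groups did not overlap, and CML-TKI 4 came closest to the CML libraries. The mean was 417 ± 79.2 CPM (SD, n = 4) against 103 ± 82.2 CPM (SD, n = 4), a log2 fold change of -2.01 (standard error 0.47, edgeR adjusted p = 0.0263). This call was lost without CML 1, 2, 3 or 5 or CML-TKI 3, with adjusted p from 0.0513 to 0.0698 and log2 fold changes from -2.13 to -1.89.

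GPIb-IX-V is the receptor that catches von Willebrand factor on the platelet, and Gp9 and Gp1bb encode its small subunits. Gp9 (chromosome 6, 87776131 to 87779786, plus strand) was measured at 26.8, 23.7, 21.5 and 35.7 CPM in the CML libraries and at 3.99, 0.620, 2.19 and 3.90 CPM in CML-TKI 1 to 4. CML-TKI 2 and 3 held 2 counts each, under the floor, and the other pair 21 and 15. With 26.9 ± 6.27 CPM against 2.68 ± 1.60 CPM (SD, n = 4 each), Gp9 was 9.63-fold lower after imatinib (log2 -3.27, standard error 0.55, edgeR adjusted p = 0.00589). Leaving out any one of the 8 libraries kept it past the threshold (adjusted p up to 0.0269).

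Gp1bb (chromosome 16, 18620319 to 18622403, minus strand) was measured at 21.2, 19.1, 12.8 and 38.6 CPM in the CML libraries and at 2.28, 0, 0 and 17.4 CPM in CML-TKI 1 to 4. It was the one tested member whose groups overlapped, since CML-TKI 4 lay above CML 3. Its log2 fold change of -2.11 had a standard error of 1.09 (edgeR adjusted p = 0.260). Without CML-TKI 4 it was -4.43 with an adjusted p of 0.0292, so this library decided the call. Over the fits with 1 library left out, the adjusted p reached 0.455.

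The Gp1bb values also depend on how reads were divided. The gene overlaps Sept5, a septin gene on the same strand, and in the deposited table a row written as the date 5-Sep had fractional counts that completed those of Gp1bb to whole numbers (within 0.01) in all 6 libraries where Gp1bb was not whole. The sums were 182, 112, 75 and 302 counts in the CML libraries and 77, 3, 3 and 127 in CML-TKI 1 to 4. Of these, 5-Sep took 65.0 in CML-TKI 1 and 60.2 in CML-TKI 4 but 9.23 to 26.2 in the CML libraries. For the joined row, an alternative added after seeing the data, levels were 25.6 ± 11.4 CPM in CML and 12.97 ± 14.7 CPM in CML-TKI (SD, n = 4 each). Its log2 fold change of -0.93 (standard error 0.81, edgeR adjusted p = 0.517) was closer to 0 than that of Gp1bb alone.

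**Figure D2:**
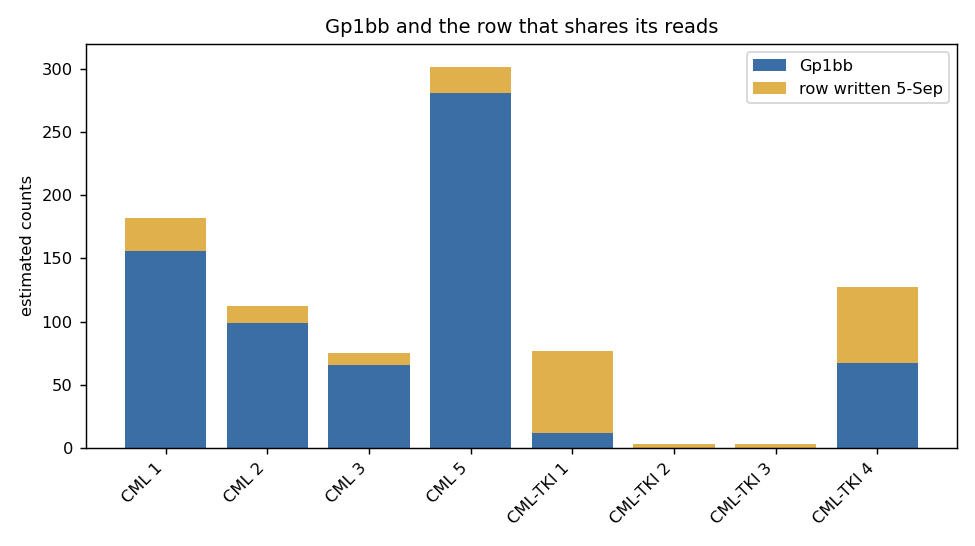
Estimated counts (y axis) of Gp1bb (blue) and of the row written 5-Sep (yellow), stacked, in each library. The 5-Sep part holds most of the 77 counts of CML-TKI 1 and a minor part in every CML library.

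Vwf, on chromosome 6 from 125552948 to 125686679 (plus strand), encodes von Willebrand factor, the large adhesive protein of platelets and endothelium. Its level was nearly constant among untreated libraries, with 793, 793, 798 and 741 CPM in CML 1, 2, 3 and 5. The CML-TKI libraries held 135, 5.58, 28.5 and 236 CPM, all below every CML library and spread over a wide range. The means were 781 ± 27.1 CPM and 101 ± 106 CPM (SD, n = 4 each), a log2 fold change of -2.93 with a standard error of 0.85 that did not pass the threshold (edgeR adjusted p = 0.0562). It passed without CML-TKI 2 (-2.54, adjusted p = 0.0323) and without CML-TKI 4 (-3.77, adjusted p = 0.0361), and its adjusted p was up to 0.136 with another library left out.

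Pf4, on chromosome 5 from 90772435 to 90773383 (plus strand), encodes platelet factor 4, a chemokine stored in alpha-granules. It was measured at 47.7, 60.2, 45.6 and 111 CPM in the CML libraries. CML-TKI 1 to 4 held 3.42, 1.55, 0 and 37.7 CPM, so that 3 libraries were far below the CML range and CML-TKI 4 was just under it. The 0 counts of CML-TKI 3 allow up to 3.29 CPM. The means were 66.1 ± 30.5 CPM and 10.7 ± 18.1 CPM (SD, n = 4 each), and the log2 fold change of -2.54 (standard error 0.99) did not pass the threshold (edgeR adjusted p = 0.137). Without CML-TKI 4 it was -4.95 (adjusted p = 0.00457), and with another library left out the adjusted p was up to 0.282.

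Selp encodes P-selectin, which moves from alpha-granules to the surface of activated platelets and binds leukocytes (chromosome 1, 164115264 to 164150026, plus strand). It was measured at 89.9, 61.0, 71.7 and 66.4 CPM in the CML libraries and at 55.8, 1.86, 4.38 and 15.3 CPM in CML-TKI 1 to 4. Here CML-TKI 1, not CML-TKI 4, came closest to the CML range. Its log2 fold change was -1.83 (standard error 0.78, edgeR adjusted p = 0.172), and without CML-TKI 1 it was -3.23 (adjusted p = 0.00583). The adjusted p was up to 0.326 with another library left out. Its counts were fractional in 6 libraries, with no single row that completed them.

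Nfe2, on chromosome 15 from 103248212 to 103258403 (minus strand), encodes the p45 subunit of NF-E2, a factor needed for platelet release. It was measured at 191, 171, 171 and 278 CPM in the CML libraries and at 69.3, 81.2, 76.7 and 108 CPM in CML-TKI 1 to 4. The groups did not overlap and the CML-TKI libraries were close to each other, with 203 ± 51.2 CPM against 83.8 ± 16.8 CPM (SD, n = 4 each). It was lower past the threshold (log2 fold change -1.27, standard error 0.24, edgeR adjusted p = 0.0109). Its call held whichever of the 8 libraries was left out (adjusted p up to 0.0399).

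Clec1b encodes CLEC-2, a platelet receptor for podoplanin (chromosome 6, 129397297 to 129405413, plus strand). It had 3 counts in each CML library and 2, 9, 2 and 1 counts in CML-TKI 1 to 4. 7 of the 8 libraries were at or under the floor, and the filter on low counts left it out of the test. Without that filter it went the other way from the rest of the members (log2 fold change 1.36, standard error 1.06, edgeR adjusted p = 0.457), and a difference was not detectable at this depth.

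The members kept different parts of their CML level in different CML-TKI libraries. In CML-TKI 2, the 7 tested members held between 0% (Gp1bb) and 40.0% (Nfe2) of their CML mean, and in CML-TKI 3 between 0% (Pf4 and Gp1bb) and 37.8% (Nfe2). In CML-TKI 4 they held 53.8% for Itga2b, 57.1% for Pf4, 76.0% for Gp1bb and 53.2% for Nfe2, but 30.3% for Vwf, 21.3% for Selp and 14.5% for Gp9. CML-TKI 1 held 77.3% of the Selp level and 5.17% to 34.2% of the others.

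**Figure D3:**
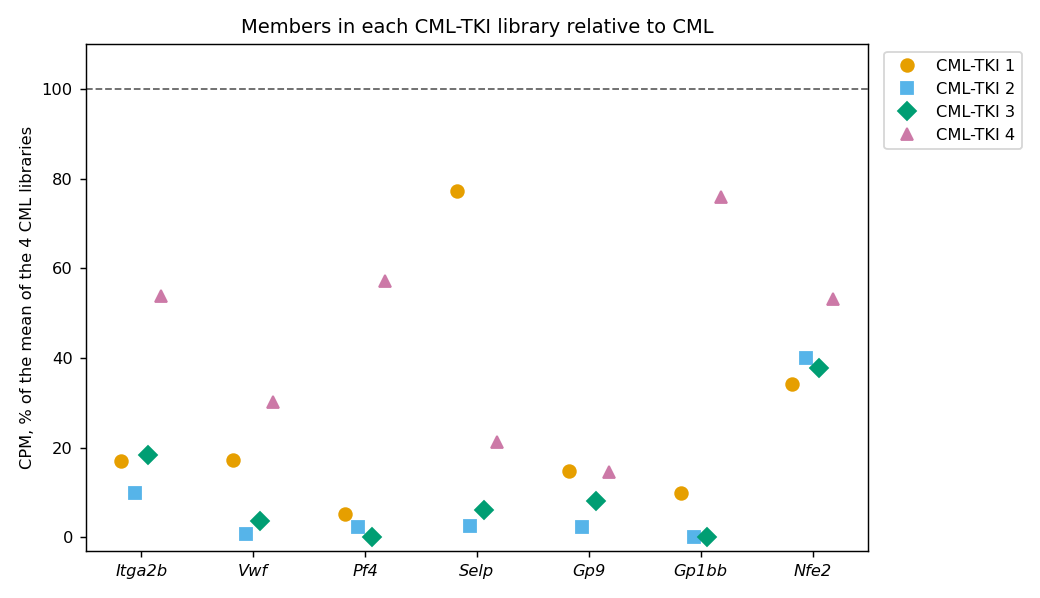
CPM of the 7 tested members in each CML-TKI library as a percent of the mean of the 4 CML libraries (y axis; dashed line, 100%). CML-TKI 4 (triangles) is highest for every gene but Selp and Gp9, CML-TKI 1 (circles) for these, and Nfe2 is the one gene with all 4 libraries between 34.2% and 53.2%.

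Per length of transcript, which allows genes to be compared, 3 members were at the top in the CML libraries, with 121 ± 23.1 CPM per kilobase for Itga2b, 112 ± 51.9 for Pf4 and 108 ± 27.2 for Nfe2 (SD, n = 4 each), and their libraries overlapped. Vwf followed with 88.4 ± 3.06 CPM per kilobase, within the range of Pf4 and below every library of Itga2b and Nfe2. Gp9 (30.6 ± 7.12) lay clearly under Vwf and overlapped Selp (21.01 ± 3.65), which overlapped Gp1bb (11 ± 5.31), and Clec1b was last with 0.454 ± 0.0895. In the CML-TKI libraries Nfe2 had the highest mean with 44.6 ± 8.96 CPM per kilobase, and Itga2b (30.0 ± 23.9), Pf4 (18.2 ± 30.8) and Vwf (11.5 ± 12.02) followed with overlapping libraries. In CML-TKI 4, Itga2b (65.2) and Pf4 (64.2) were above Nfe2 (57.5). These levels used the longest GENCODE transcript matched to a RefSeq accession.

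The other genes of the program were read by role from 76 genes in 5 lists, of which 70 were tested. 17 were lower and 5 were higher in the CML-TKI libraries past the threshold, against 3.93% and 6.29% of all genes tested, and 48 did not pass. Without CML 1, 2, 3 or 5 the number lower was 9, 10, 11 and 11, and without CML-TKI 1 it was 26. The number of all genes lower moved the same way in these fits, to 141 of 12240 without CML 1, 171 of 12231 without CML 2, 164 of 12158 without CML 3, 257 of 12250 without CML 5 and 1333 of 12147 without CML-TKI 1. With CML 1 to 3 summed to 1 library, 2 of the list genes were lower, beside 20 of all 12564 genes tested in that fit. In the main fit, the median log2 fold change of the 70 list genes was -0.88.

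Among 7 tested partners of the member receptors, 2 were lower, 1 was higher and 4 did not pass, with a median log2 fold change of -1.12. Gp5, a further subunit of GPIb-IX-V, fell from 87.6 ± 25.9 to 13.4 ± 14.0 CPM (SD, n = 4 each; log2 fold change -2.66, standard error 0.67, edgeR adjusted p = 0.0343), a call lost without any one CML library or CML-TKI 3 (adjusted p up to 0.0925). Gp1ba, the subunit that binds von Willebrand factor, was at 17.4 to 22.03 CPM in CML and 1.10 to 9.11 CPM in CML-TKI libraries without overlap, and did not pass (log2 fold change -1.74, adjusted p = 0.0709; without CML-TKI 1, -1.98 and 0.0323). Itgb3, the beta chain that pairs with CD41, was measured at 231, 229, 173 and 231 CPM in the CML libraries and at 125, 12.1, 4.38 and 249 CPM in CML-TKI 1 to 4. CML-TKI 4 was thus above every CML library, and the log2 fold change of -1.12 (standard error 0.88) did not pass (adjusted p = 0.463). Fermt3, which encodes the integrin activator kindlin-3, was lower (log2 fold change -1.36, adjusted p = 0.0112). Fcer1g, the signalling chain of platelet GPVI and of Fc receptors on myeloid cells, was higher, with 1.16 to 2.89 CPM in CML and 7.03 to 32.8 CPM in CML-TKI libraries (log2 fold change 3.43, adjusted p = 0.00840).

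Of 21 tested receptors and signalling genes of platelets, 5 were lower, 0 were higher and 16 did not pass, with a median log2 fold change of -1.70. The thromboxane receptor Tbxa2r had 37.1 ± 11.7 CPM in CML and was at 0 to 3.90 CPM in CML-TKI libraries (log2 fold change -4.08, edgeR adjusted p = 0.00806). Of the thrombin receptor genes in this list, F2rl3 (-3.36, adjusted p = 0.00407) and F2r (-2.67, adjusted p = 0.00218) were lower too. F2rl2 overlapped between the groups and did not pass (-0.94, adjusted p = 0.466). Pear1, a platelet adhesion receptor, was close to the threshold (-2.99, adjusted p = 0.0491), and its call was lost without any one CML library, CML-TKI 3 or CML-TKI 4 (adjusted p up to 0.127).

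Granule genes were divided in direction, with 3 lower, 1 higher and 12 not passing among 16 tested and a median log2 fold change of 0.15. Pdgfb, a growth factor of alpha-granules, was lower (-3.81, edgeR adjusted p = 0.0166, lost without CML 1, 3 or 5, up to 0.0584), as was Angpt1 (-3.25, adjusted p = 0.0175, lost without CML 1, 2 or 3 or CML-TKI 4, up to 0.0555). Nbeal2, which is needed to form alpha-granules, was lower by less (-0.90, adjusted p = 0.0255, lost without CML 1, 2 or 3 or CML-TKI 2, up to 0.0875). F13a1, the clotting factor XIII subunit of megakaryocytes and of monocytes, was higher, with 2.32 to 6.54 CPM in CML and 303 to 1856 CPM in CML-TKI libraries (log2 fold change 8.02, adjusted p = 5.41e-04). Ppbp, a chemokine gene beside Pf4 on chromosome 5, did not pass. It was at 2.996 to 7.01 CPM in CML libraries and at 0.950, 0, 8.77 and 64.5 CPM in CML-TKI 1 to 4, and its log2 fold change of 1.93 (adjusted p = 0.387) turned to -0.97 without CML-TKI 4 (adjusted p = 0.664).

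Of 15 tested transcription factors, 6 were lower, 0 were higher and 9 did not pass, with a median log2 fold change of -1.20. Meis1 (log2 fold change -3.07, edgeR adjusted p = 0.0102), Zfpm1, the GATA1 partner FOG1 (-2.73, adjusted p = 0.0172), Gata2 (-2.32, adjusted p = 0.00418) and Tal1 (-1.76, adjusted p = 0.0263) had the largest changes among the 6 that passed. Fli1, an ETS factor of megakaryocytes, was at 242 to 291 CPM in CML and 89.5 to 151 CPM in CML-TKI libraries (-1.05, adjusted p = 0.0148). The calls were lost without CML 5 for Zfpm1 (0.0515), without CML 1 or 2 for Fli1 (up to 0.0632) and without any one CML library or CML-TKI 2 for Tal1 (up to 0.0712). Gata1 did not pass, with 49.5 to 94.6 CPM against 5.27 to 44.2 CPM (-1.32, adjusted p = 0.155), and Runx1 overlapped between the groups (-0.27, adjusted p = 0.618). The small Maf partners with which p45 binds DNA did not pass either (Mafk -0.94, adjusted p = 0.211; Mafg 0.59, adjusted p = 0.235).

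Cytoskeletal genes had 1 lower, 3 higher and 7 not passing among 11 tested, with a median log2 fold change of 0.27. Tuba8, an alpha-tubulin, was lower (-2.45, edgeR adjusted p = 0.0189, lost without CML 1, 2 or 5, up to 0.0609). Tpm4 (2.67, adjusted p = 0.00100), Parvb (2.01, adjusted p = 0.0258, lost without CML 1, 2 or 3 or CML-TKI 4, up to 0.0862) and Flna (1.24, adjusted p = 0.00413), which serve the actin skeleton of many cell types, were higher. The platelet tubulin Tubb1 was at 1.74 to 5.31 CPM in CML libraries and at 0.950, 0.620, 2.19 and 16.1 CPM in CML-TKI 1 to 4, so that CML-TKI 4 stood out again. Its log2 fold change of 0.42 (adjusted p = 0.830) turned to -1.81 without that library (adjusted p = 0.191). With all libraries thinned to the smallest total, the calls for Tbxa2r, Fli1, Nbeal2, Parvb and Tuba8 were lost (edgeR adjusted p from 0.0531 to 0.205), and Fcer1g could not be tested. With total counts as the scaling, those for Pear1 (0.0602) and Tal1 (0.0510) were lost. The Pear1 call was also lost with no filter on low counts (0.0723).

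**Figure D4:**
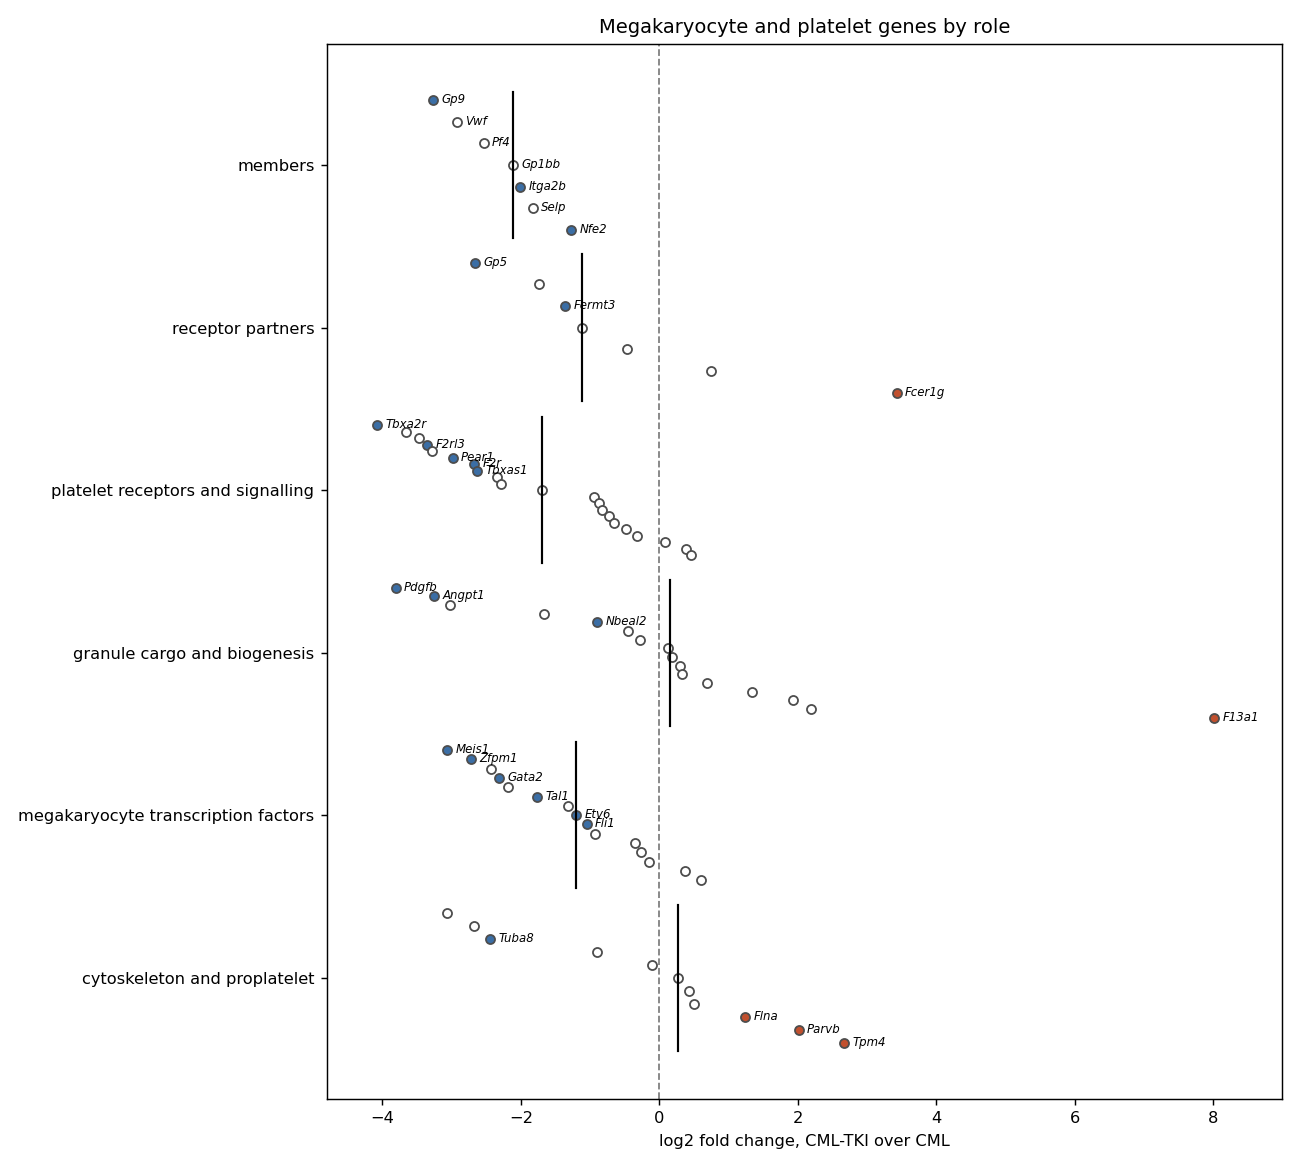
Log2 fold change of CML-TKI over CML (x axis) of each tested gene by role (rows); filled points passed an edgeR adjusted p of 0.05 (blue lower, red higher), open points did not, and black bars are medians. Receptors and transcription factors sit mostly to the left of 0, whereas granule and cytoskeletal genes sit on both sides.

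The pattern of the tested members, as the mean of their log2 CPM relative to the CML libraries, was -2.36, -4.57, -4.10 and -1.33 in CML-TKI 1 to 4. Among 9308 other genes whose log2 CPM averaged 3 or more, the most similar over the 8 libraries were Rab37 (root mean square difference 0.367 log2 units), Vamp5 (0.396), Rtl6 (0.399), Gp5 (0.413) and Jun (0.511). They were chosen for this pattern in the same libraries, so these values are a description.

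Markers of other cells also differed between the groups, and their counts stand against 3.93% of all genes lower and 6.29% higher. HSC markers summed to 984 to 1181 CPM in the CML libraries and to 64.8 to 401 CPM in the CML-TKI libraries, and 2 of 9 tested were lower. In CML-TKI 4 this sum was the lowest of all libraries while the sum over the members was the highest of its group. Endothelial cells also make Vwf and Selp, and 5 of 9 tested endothelial markers were lower, with sums of 529.6 to 837 CPM in CML and 66.6 to 174 CPM in CML-TKI libraries. Most of the CML sum was Tie1 (217 to 331 CPM), Eng (151 to 219 CPM) and Tek (57.7 to 94.7 CPM), which stem cells express too, while Pecam1 (log2 fold change -0.04, edgeR adjusted p = 0.954) and Kdr (-1.61, adjusted p = 0.399) overlapped. The endothelial gene Cdh5 was at 6.54, 3.86, 36.7 and 42.5 CPM in CML 1, 2, 3 and 5. In CML-TKI libraries it was at 0 to 1.10 CPM (log2 fold change -6.43, edgeR adjusted p = 0.0108). Sox18 was lower too (-4.49, adjusted p = 0.0330). Emcn did not overlap but did not pass (-3.24, adjusted p = 0.0587), and Plvap overlapped (-2.36, adjusted p = 0.216). Sox17 had no counts in CML 1, CML 2 and the 4 CML-TKI libraries. Granulocyte markers (12 of 13 higher) summed to 155 to 267 CPM and 1495 to 8634 CPM, and monocyte and macrophage markers (8 of 9 higher) to 31.3 to 58.5 CPM and 733 to 3399 CPM. CML-TKI 1 held the lowest sum of both among the treated libraries.

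Erythroid markers, of the lineage closest to megakaryocytes, summed to 357 to 555 CPM in the CML libraries and to 124, 75.3, 25340 and 1224 CPM in CML-TKI 1 to 4, with 1 of 11 tested higher and 0 lower. Most of the sum in CML-TKI 3 was hemoglobin, with 19625 CPM of Hba-a1 and 4214 CPM of Hbb-bt. Basophil and mast cell markers, of which 5 of 7 were in the table and 1 was tested (higher), summed to 118, 204, 4.38 and 1164 CPM in CML-TKI 1 to 4 and to 2.06 to 4.05 CPM in the CML libraries, so that CML-TKI 3 was close to the CML range. Lymphoid markers, of which 0 of 8 were tested, summed to at most 2.89 CPM in CML and to 7.60 to 224 CPM in CML-TKI libraries. The part of these cell types in the levels of the members was not tested.

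**Figure D5:**
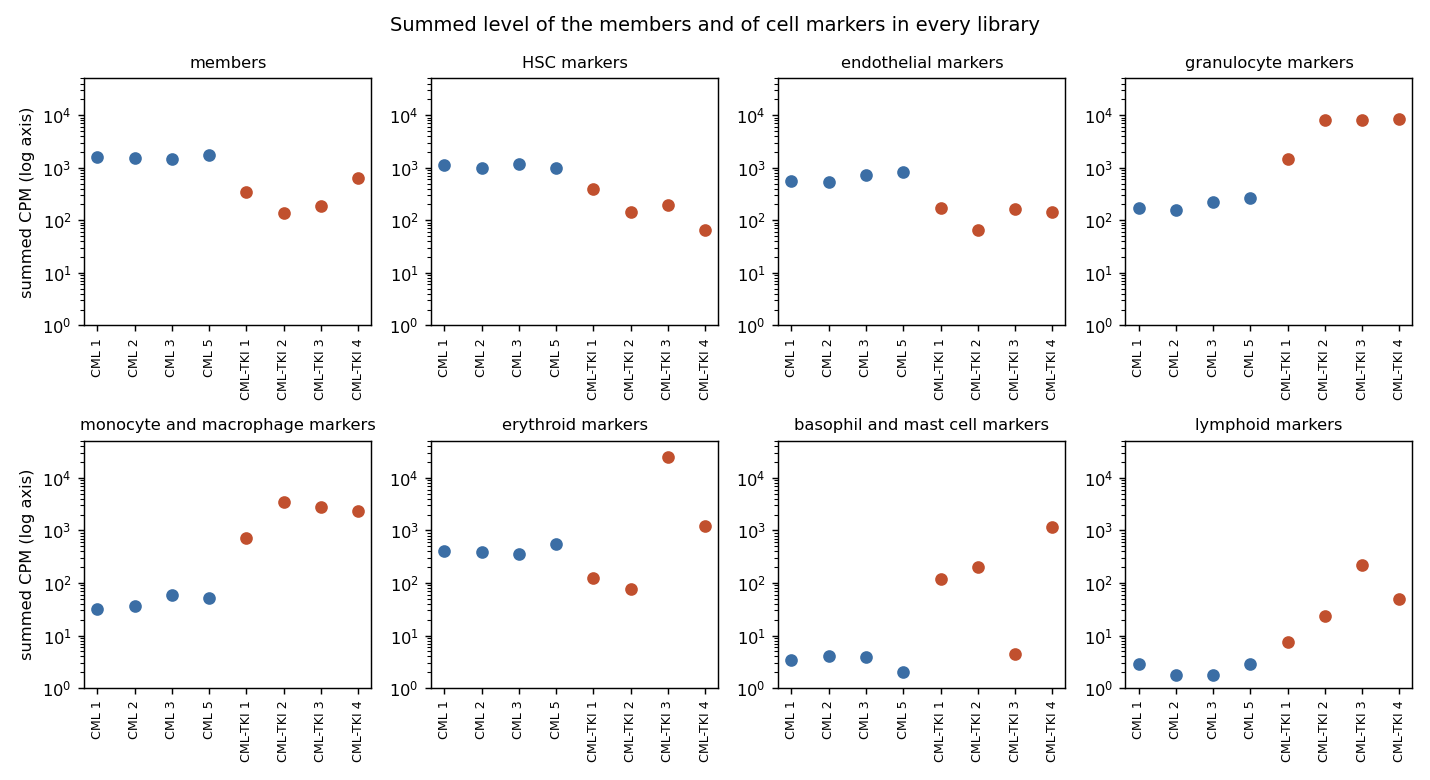
Summed CPM (y axis, logarithmic) of the 8 members and of 7 lists of cell markers in each library (blue CML, red CML-TKI). The members, HSC and endothelial markers are lower and the granulocyte and monocyte markers higher in all 4 CML-TKI libraries, and the erythroid sum reaches 25340 CPM in CML-TKI 3.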

How the data were processed

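RNA of the sorted cells was isolated with the RNeasy Plus mini kit and made into Nextera XT libraries. The authors aligned paired reads to mm10 with STAR 2.6.1d, assigned them to RefSeq transcripts with Partek Flow (Partek 8.0 per the labels) and deposited estimated counts for each gene, not normalized. In each library 8.32% to 22.1% of values were fractional, 5 genes had no count in any library, and 19 symbols were written as dates. Columns were matched by group and number, and CML 5 has no number among the labels.

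Estimated counts were rounded and tested with edgeR 4.0.16 in R 4.3.3 (TMM, filterByExpr with minimum count 10 and minimum total 15, robust quasi-likelihood test, Benjamini-Hochberg adjustment over 11937 genes, threshold 0.05). Standard errors are the log2 fold change over the square root of F, log2 CPM uses a prior count of 2, and CPM is TMM-normalized. The test was run on simulated counts with 8-fold changes, where it recovered 78.6% of the changed genes and 5.77% of its calls were false. Promoters and coordinates are from RefSeq GRCm38.p6, the assembly of mm10, and transcript lengths from GENCODE. Strand was not stated for the counting, so counts from genes that overlap on opposite strands are uncertain. Whether Selp has such an overlap was not examined.

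The members and lists were chosen with earlier results of these data known. Named genes were the members, up to 4 genes per list past the threshold with the largest change, 11 fixed genes (1 of them is not reported here), 2 gate genes and the 5 most similar genes. Marker genes named with their values, F2rl2, and the gate genes besides Slamf1 and Cd48 were chosen after these values were seen. Reads carried no molecular identifiers, so a floor of 3 counts speaks to counting error alone. Alternatives were other normalizations, no filter, DESeq2 1.42.0, limma-voom with sample quality weights (limma 3.58.1), each library left out, CML 1 to 3 summed, a replicate block, and thinning to the smallest total.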

Additional observations from a re-analysis of the deposited data

Results flagged for a closer look

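Of 86 group levels of members and named genes, in 13 the highest or lowest library stood away from the rest (gap to the nearest over the range above Dixon's 95% critical value for 4 samples), where about 1 in 20, or 4.3, would by chance, and many of these levels are not independent. CML-TKI 4 stood above its group for Pf4 (37.7 CPM against 0 to 3.42, gap 0.909 of the range), Gp1bb (17.4 against 0 to 2.28, 0.869), Ppbp (64.5 against 0 to 8.77, 0.864) and Tubb1 (16.1 against 0.620 to 2.19, 0.899). CML-TKI 1 stood above for Meis1 (86.0 against 8.77 to 21.9 CPM, 0.831) and CML-TKI 2 below for Gata2 (21.7 against 65.8 to 74.8 CPM, 0.8292).

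CML 5 stood below CML 1 to 3 for Vwf (741 against 793 to 798 CPM, 0.908) and above them for Fermt3 (611 against 396 to 413, 0.918), Gata2 (359 against 252 to 267, 0.860), Mafk (69.6 against 39.2 to 43.7, 0.851), Pear1 (192 against 141 to 149, 0.831) and F2rl3 (150 against 120 to 125, 0.830). CML 3 stood below for Itgb3 (173 against 229 to 231 CPM, 0.962).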

How the results depend on the processing

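The 7 members tested stayed lower in the CML-TKI libraries under every alternative run, except that Gp1bb could not be tested after thinning. Clec1b, tested only without the filter, was at 1.36 (edgeR adjusted p = 0.457). The calls for Gp9, Itga2b and Nfe2 held under size factors by RLE, total counts, TMM without Rn45s, no filter, DESeq2, weighted limma-voom, thinning and the joined row. The 3 changes of scaling put the median over all genes between -0.0154 and 0.0585 (log2), whereas limma-voom with sample quality weights moved it to -0.114 and the replicate block to -0.128.

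With CML 1 to 3 summed to 1 library, 122 genes and 0 members passed, with log2 fold changes of -3.47 for Gp9, -2.14 for Itga2b and -1.47 for Nfe2 (edgeR adjusted p = 0.0962, 0.165 and 0.0938), and 4 pathway genes, 2 of them lower. DESeq2 called 2157 genes and 5 members, adding Vwf (-2.97) and Pf4 (-2.64). Limma-voom with these weights, a change of test and of weighting at once, called 2544 genes, 6 members, adding Vwf (-3.63), Pf4 (-3.13) and Selp (-2.76), and 39 pathway genes, 33 lower, and turned Tubb1 to -0.13. Thinning called 563 genes, and Vwf at -3.24. Whether the replicate numbers pair the libraries is not known. The deviations of libraries 1, 2 and 3 correlated with those of the same number at -0.0224, 0.152 and 0.0908 over genes. With 3 libraries in each group, such correlations cannot decide it. CML 2 and 3 went best with their own number and CML 1 with CML-TKI 2. With a replicate block over these 6 libraries 193 genes passed (589 with no replicate block), with 7 pathway genes, 4 lower; Gp9 (-3.61) and Nfe2 (-1.22) did not pass, Pf4 did (-4.85, and -4.59 without the block), and Ppbp turned to -1.60 (-0.71). The cause of these differences was not tested.

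With each library left out in turn, 505 to 2504 genes, 2 to 6 members and 13 to 33 pathway genes (9 to 26 lower) passed, the extremes for all genes coming without CML 1 and without CML-TKI 1. Log2 fold changes ran from -3.55 to -2.92 for Gp9, -2.74 to -1.75 for Itga2b, -1.43 to -1.09 for Nfe2, -3.77 to -2.54 for Vwf, -4.95 to -2.16 for Pf4, -3.23 to -1.45 for Selp and -4.43 to -1.68 for Gp1bb. Ppbp ran from -0.97 to 2.35 and Tubb1 from -1.81 to 0.80, both lowest without CML-TKI 4. In CML-TKI 3, levels under 3.29 CPM were not resolved.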
